A study of Mus musculus with 12 samples.

Results

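The genes described here encode malic enzyme 1 (Me1), which makes NADPH in the cytosol, and enzymes around it. Me2 encodes the mitochondrial malic enzyme, and G6pdx and Idh1 encode enzymes that supply NADPH. Acly, Acaca, Fasn, Scd1, Scd2 and Elovl6 encode enzymes of fatty acid synthesis, elongation and desaturation. These 10 genes were taken by name, and every probe set of the array that names 1 of them and no other gene was used. Probe sets were found for 9 of the 10, with 279 probe sets in all, and these 9 stand among 20711 genes with a value in the series. No probe set named G6pdx alone, so glucose-6-phosphate dehydrogenase has no value here. The set was chosen by the high level of Me1 with full-length MEIS1 in these same arrays. All differences of the members between HOXA9+MEIS1 and HOXA9+MIY, and the level of Me1 in HOXA9+MEIS1 against HOXA9+MDHD, are therefore given as descriptions with no test.

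RNA was measured on Affymetrix exon arrays in primary bone marrow progenitor cultures from female C57B/6 mice, 12 weeks old and treated with 5-fluorouracil (5-FU), a drug that removes cycling cells from the marrow. Every culture overexpressed HOXA9 from an MSCV retroviral construct and grew in DMEM with 15% FCS, IL3, SCF and IL6. HOXA9+MIY cells carried the empty MIY vector as their second construct, HOXA9+MEIS1 cells carried full-length Meis1, and HOXA9+MDHD cells carried Meis1 without its homeodomain, the part of the protein that contacts DNA. Each condition had 4 arrays, 2 of cells harvested at week 3 and 2 at week 4, described by the submitters as separate experiments. All 3 conditions carry HOXA9, so no comparison here is with untransduced marrow, and the constructs drive levels set by a viral vector. How many mice gave each culture is not stated in the sources used here.

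Malic enzyme 1 oxidises malate to pyruvate in the cytosol and passes the electrons to NADP+, giving NADPH. Cells also make cytosolic NADPH in the pentose phosphate pathway, which glucose-6-phosphate dehydrogenase opens, and through isocitrate dehydrogenase 1. Fatty acid synthesis spends that NADPH: ATP citrate lyase makes acetyl-CoA, acetyl-CoA carboxylase makes malonyl-CoA, fatty acid synthase builds palmitate, and elongases and desaturases lengthen and unsaturate it. In liver and fat Me1 is known as a lipogenic gene that is induced together with Fasn and Scd1, and MEIS1 is known as a HOX cofactor that speeds HOXA9 leukaemia.

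Values are log2 per gene, a median polish over the gene's probe sets whose mean lay above 6.26, the middle of all probe sets on the array. A call means an adjusted p under 0.05 in limma over all 20711 genes (Benjamini-Hochberg), with condition and week as terms. The 12 arrays correlated with each other at 0.967 to 0.985 over probe sets. Meis1 RNA was higher where the labels place a Meis1 construct, 7.36-fold in HOXA9+MEIS1 and 6.05-fold in HOXA9+MDHD, each against HOXA9+MIY. Hoxa9 averaged 13.29 to 13.37 in the 3 conditions with no call. These gene values do not show the missing homeodomain. Every array carries the HOXA9 construct, so no comparison here can check it. Of the cell type markers, neutrophil genes were called lower under HOXA9+MEIS1 than under HOXA9+MIY for 8 of 8. Beside these and the following counts, 5.56% of all genes were called lower in that comparison and 5.29% higher. The neutrophil list means were 7.75 to 8.14 against 10.15 to 11.03, and 8.27 to 10.38 in HOXA9+MDHD. Monocyte genes were called lower for 7 of 8 (8.06 to 8.37 against 10.25 to 10.45, and 9.32 to 10.12 in HOXA9+MDHD). Stem and progenitor genes were called higher for 5 of 8 (9.98 to 10.25 against 8.73 to 8.91, and 9.46 to 9.82). Meis1, which the constructs of both conditions supply, is 1 of these 5 and counts in the list means, which were not computed without it. In the same comparison 1 of 3 primary granule, 1 of 2 eosinophil and 1 of 4 megakaryocyte genes were called lower. Called higher were 1 of 2 erythroid and 1 of 5 stroma and endothelium genes, and no measured mast cell (4), B (3) or T (2) lymphoid gene was called. In HOXA9+MDHD against HOXA9+MIY, 3 of 8 neutrophil and 5 of 8 monocyte genes were called lower. There 3 of 8 stem and progenitor genes, Meis1 among them, were called higher, beside 1.91% of all genes called. Any other list had at most 1 call there. In HOXA9+MEIS1 against HOXA9+MDHD, 7 of 8 monocyte and 4 of 8 neutrophil genes were called lower and none higher, beside 4.36% of all genes called. Each remaining list had at most 1 call in that comparison. From week 3 to week 4, 4 of 8 neutrophil and 2 of 4 megakaryocyte genes were called higher and none lower, beside 11.7% of all genes called higher. Of the mast cell genes 2 of 4 were called lower and none higher, beside 28.1% of all genes called lower. List means at week 3 and week 4 were 8 to 10.39 and 7.75 to 11.03 for neutrophil, 8.44 to 8.8 and 8.87 to 9.6 for megakaryocyte, and 9.27 to 10.8 and 8.72 to 9.19 for mast cell genes. Any other list had at most 1 call in each direction. The part of these shifts in the members' differences was not tested, and in such bulk RNA a change in the mix of cells cannot be told apart from a change in RNA per cell. The adipocyte list, Fabp4 and Adipoq among its 5 measured genes, had a mean of 7.32 to 7.52 on each of the 12 arrays, and 1 of the 5 was called lower under HOXA9+MEIS1 than under HOXA9+MIY.

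Me1 was low in HOXA9+MIY, slightly higher in HOXA9+MDHD and far higher in HOXA9+MEIS1. In HOXA9+MIY the arrays read 6.43 and 6.62 at week 3 and 6.55 and 6.45 at week 4. In HOXA9+MDHD they read 6.98 and 7.05 at week 3 and 7.33 and 7.25 at week 4. In HOXA9+MEIS1 they read 9.51 and 9.65 at week 3 and 10.36 and 10.44 at week 4. The 3 conditions did not overlap, and the order HOXA9+MIY, HOXA9+MDHD, HOXA9+MEIS1 held at both weeks. Means were 6.51 ± 0.09, 7.15 ± 0.16 and 9.99 ± 0.48 (SD, n = 4 each), so Me1 in HOXA9+MEIS1 stood 3.47 ± 0.14 log2 (SE) above HOXA9+MIY, or 11.1-fold. Against HOXA9+MDHD the difference was 2.83 ± 0.14 log2, or 7.12-fold. With only brighter probe sets kept, these differences were 1.63 and 1.46 log2. The HOXA9+MIY values lie just above the level at which dim probe sets were dropped, so these folds depend on how dim probe sets are treated, as the single probe sets show.

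**Figure D1:**
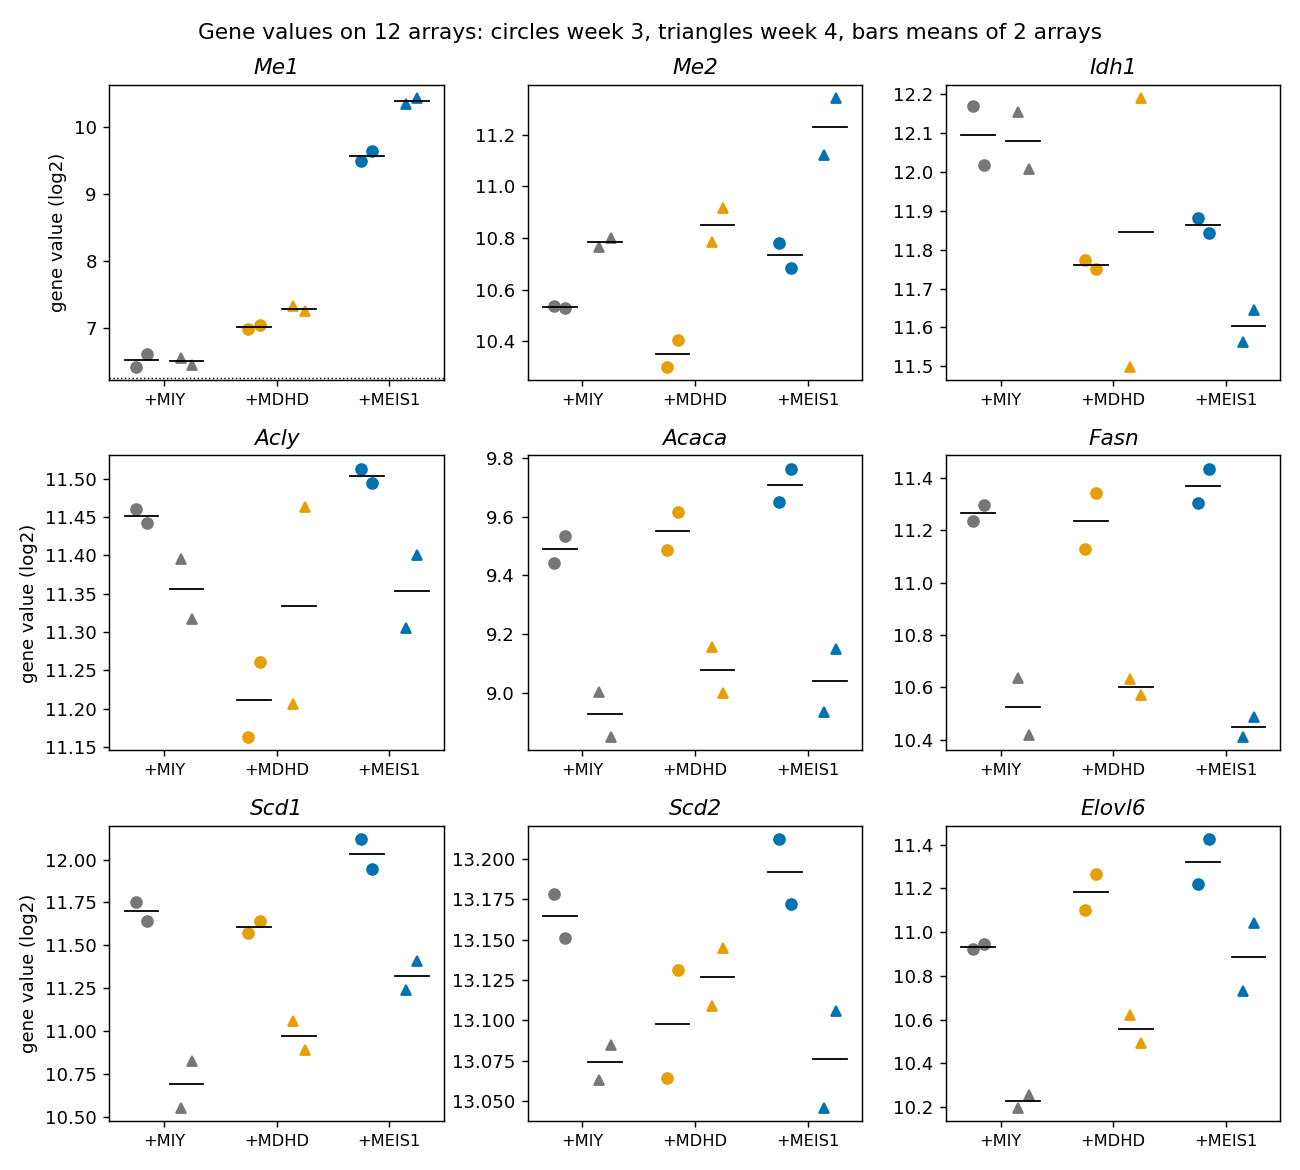
Gene values (log2) of the 9 measured members on all 12 arrays, by condition on the horizontal axis, with circles for week 3, triangles for week 4 and bars for the mean of 2 arrays; each panel has its own vertical scale, which does not start at 0. Me1 separates the 3 conditions (6.43 to 6.62, 6.98 to 7.33 and 9.51 to 10.44; the dotted line is the filter level of 6.26), while Acaca, Fasn and Scd1 separate the weeks.

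The choice of genes did not rest on the difference of Me1 between HOXA9+MDHD and HOXA9+MIY. That comparison does share its HOXA9+MIY arrays with the one that chose the set, so it is not independent of the choice. The filter on dim probe sets also used all 12 arrays. Of the 23 probe sets behind the Me1 value, 6 had a mean at or below the filter level over the 8 HOXA9+MIY and HOXA9+MDHD arrays. These 6 passed through the HOXA9+MEIS1 arrays. Me1 was 0.64 ± 0.14 log2 (SE) higher in HOXA9+MDHD, or 1.56-fold, with an adjusted p of 0.035 in limma, and all 4 arrays lay above all 4 of HOXA9+MIY. It was the only member called in this comparison, 1 of 9, where 1.91% of all genes were called, and the only one whose ranges did not overlap, which held for 4.18% of all genes. With probe sets kept by their mean over those 8 arrays alone, an alternative chosen after seeing the data, the difference was 0.33 log2 with an adjusted p of 0.188, so the call did not hold without them. It was also lost with the replicate number as a block (adjusted p = 0.0583), without the week term (0.276), and on leaving out any of 6 single arrays: HOXA9+MIY week 3 replicate 1 (adjusted p 0.0851) and week 4 replicates 1 and 2 (0.118 and 0.103), and HOXA9+MDHD week 3 replicates 1 and 2 (0.0839 and 0.0884) and week 4 replicate 1 (0.0936). With only brighter probe sets kept, the difference was 0.17 with an adjusted p of 0.593. In the model with the interaction, the difference was 0.49 log2 at week 3 (adjusted p = 0.0659) and 0.79 at week 4 (adjusted p = 0.0153), the second a call that was lost when the week 4 arrays were fitted alone (adjusted p = 0.0603).

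Me1 also moved with time in culture. Over all conditions it was 0.36 ± 0.11 log2 higher at week 4 than at week 3 (adjusted p = 0.0217, limma), a call lost on leaving out any of the 4 HOXA9+MEIS1 arrays (adjusted p 0.0526 to 0.0583). Within HOXA9+MEIS1 the rise was 0.82 ± 0.09 log2 (adjusted p = 2.34e-04), within HOXA9+MDHD the difference was 0.27 ± 0.09 (adjusted p = 0.0671), and within HOXA9+MIY it was -0.02 ± 0.09 (adjusted p = 0.915). The HOXA9+MEIS1 and HOXA9+MIY arrays accordingly differed by 3.06 log2 at week 3 and by 3.89 at week 4. The interaction of that difference with week was 0.84 ± 0.13 log2 and was not called (unadjusted p = 7.91e-05, adjusted p = 0.148, limma). It and the rise within HOXA9+MEIS1 use the arrays that chose Me1, so both are read as descriptions. No gene of the 20711 had a called interaction in limma, although 1343 had an unadjusted p under 0.05 for this interaction, 997 for HOXA9+MDHD against HOXA9+MIY and 1547 for HOXA9+MEIS1 against HOXA9+MDHD.

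The promoters of Me1 and Fasn are shown because Me1 had the largest difference between the vectors among the members, and Fasn was among the members that were lower at week 4 in every condition. Both are RefSeq windows on build GRCm38.p6, 250 bases before to 30 bases after the listed start, on the minus strand and printed 5′ to 3′ with matched motifs in capitals: chr9:86695885-86696164 for Me1 and chr11:120824518-120824797 for Fasn.
Me1: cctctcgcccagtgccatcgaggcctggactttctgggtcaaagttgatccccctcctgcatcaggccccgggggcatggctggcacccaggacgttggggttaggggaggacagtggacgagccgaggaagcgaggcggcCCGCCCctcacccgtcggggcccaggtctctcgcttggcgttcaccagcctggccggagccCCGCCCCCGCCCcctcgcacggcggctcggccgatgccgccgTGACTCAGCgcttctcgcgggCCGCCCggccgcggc
Fasn: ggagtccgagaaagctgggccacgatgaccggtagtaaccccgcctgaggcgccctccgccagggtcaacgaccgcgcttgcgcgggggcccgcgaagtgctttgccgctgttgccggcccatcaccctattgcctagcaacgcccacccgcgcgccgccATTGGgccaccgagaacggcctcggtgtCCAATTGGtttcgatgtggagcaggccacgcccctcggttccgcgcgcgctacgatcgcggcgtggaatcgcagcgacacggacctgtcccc

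In these windows 6 motifs were searched on both strands. They were the TALE core TGACAG that MEIS proteins bind, the CCAAT box, the E-box CACGTG, the GC box GGGCGG, the antioxidant response core TGACNNNGC and the sterol element core TCACNCCAC. The Me1 window held 4 GC boxes, 2 of them adjacent, and 1 antioxidant response core, TGACTCAGC, whose first base lies at position -6 from the start. It held no TALE core, CCAAT box, E-box or sterol element core. The Fasn window held 3 CCAAT matches, 2 of them overlapping on opposite strands, and none of the other motifs. For comparison, among 32851 RefSeq windows of this length 34.7% held a GC box, 11.5% an antioxidant response core, 36.1% a CCAAT box, 17.8% a TALE core, 6.79% an E-box and 1.18% a sterol element core. Windows were listed for 7 members. Those of Elovl6 and Acaca held none of the 6 motifs, that of Acly held 4 GC boxes, that of G6pdx held 1 GC box and 1 antioxidant response core, and 1 of the 2 windows of Idh1 held a TALE core. Another listed start of Me1 had 1 CCAAT match alone. Such matches describe letters only and show no binding.

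The single probe sets of Me1 differed widely in size but hardly in direction. All 26 were higher under HOXA9+MEIS1 than under HOXA9+MIY, by 0.11 to 5.15 log2 with a median of 3.61. On 24 of them every HOXA9+MEIS1 array lay above every HOXA9+MIY array, which held for 4.00% of all single probe sets, and 17 differed by over 3 log2. As read, the difference of 5.15 was on probe set 5318015, with means of 4.22 in HOXA9+MIY, 5.58 in HOXA9+MDHD and 9.36 in HOXA9+MEIS1, the lower pair below the filter level. Probe set 5511476 was above the filter level in every condition and differed by 4.28 log2, with means of 6.85, 8.08 and 11.13 in the same order, a fold of 19.4. That was the largest difference of the 26 once values below the filter level were set to it.

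At the other end, probe set 4762207 read 8.96 in HOXA9+MIY, 9.03 in HOXA9+MDHD and 9.08 in HOXA9+MEIS1, and probe set 5594250 read 8.63, 8.47 and 8.86. These were the 2 probe sets whose HOXA9+MEIS1 and HOXA9+MIY arrays overlapped, and 4 of the 26 differed by under 1 log2. The flat probe sets were bright in all conditions: of the 13 Me1 probe sets whose mean exceeded the stricter level of 7.725, the 75th percentile of the array, 8 differed by under 2 log2. A gene value built on those 13 alone put Me1 1.63 log2 higher under HOXA9+MEIS1 than under HOXA9+MIY, against 3.47 with the wider set.

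The dim end of the scale limits the folds as well. The HOXA9+MIY mean lay below the filter level of 6.26 on 14 of the 26 probe sets, the HOXA9+MDHD mean on 5 and the HOXA9+MEIS1 mean on none. With each HOXA9+MIY array set to no less than 6.26, probe set 5318015 was at least 8.60-fold and probe set 4609825 at least 14.0-fold higher in HOXA9+MEIS1, in place of 35.4-fold and 34.1-fold as read. The filter itself left out 3 Me1 probe sets: probe set 4954790, with a mean of 6.2591 over the 12 arrays, lay closest below the level of 6.2592, and probe set 5318015, with a mean of 6.3863, closest above it.

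HOXA9+MDHD lay between the other conditions on 21 of the 26 Me1 probe sets, and 5 read lower in HOXA9+MDHD than in HOXA9+MIY, the lowest by 0.17 log2. The median difference between HOXA9+MDHD and HOXA9+MIY was 0.66 log2 as read, and 0.30 with values below the filter level set to it. On that bounded scale the largest was 1.23, on probe set 5511476. In limma over all single probe sets, 8 of the 26 were called higher and none lower, where 1.22% of all probe sets were called. Of these 8, only probe sets 5511476 and 4679378 had a HOXA9+MIY mean above the filter level (6.85 and 6.59). The others were called from values partly below it: probe set 5318015 differed by 1.36 log2 as read and by 0 on the bounded scale. All HOXA9+MDHD arrays lay above all HOXA9+MIY arrays on 11 of them, which held for 1.69% of all probe sets. The probe sets share their arrays and are not replicates of the gene.

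**Figure D2:**
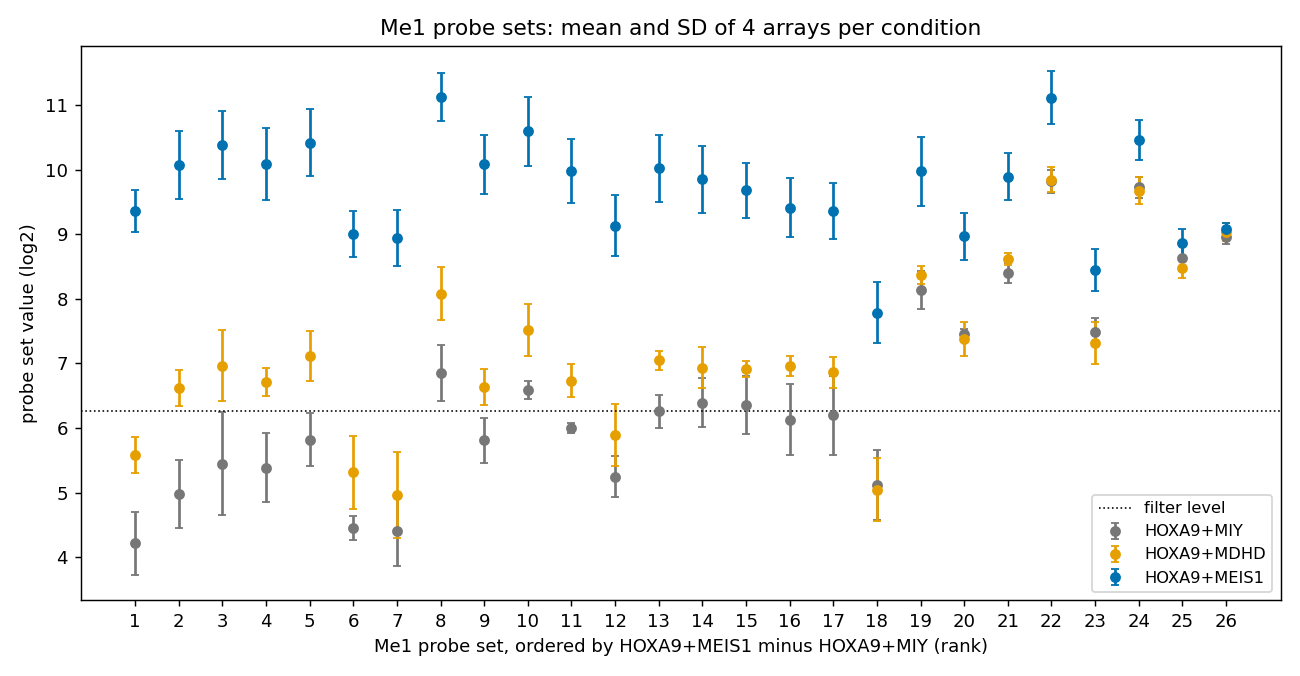
Mean and SD (n = 4 arrays) of each of the 26 Me1 probe sets in HOXA9+MIY, HOXA9+MDHD and HOXA9+MEIS1 on the log2 scale, ordered by the HOXA9+MEIS1 minus HOXA9+MIY difference, with the filter level of 6.26 dotted. The differences run from 5.15 on the left to 0.11 on the right, where the probe sets are bright in all 3 conditions.

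Over the 12 arrays, the 5 gene values that followed Me1 most closely by Pearson correlation were Hp1bp3 (0.989), Slc18a1 (0.985), Leprel1 (0.976), 4930402H24Rik (0.975) and Atp1b1 (0.972), picked from all 20711 genes for that likeness. Slc18a1, a vesicular monoamine transporter, averaged 6.93 in HOXA9+MIY, 7.29 in HOXA9+MDHD and 8.64 in HOXA9+MEIS1. Atp1b1, a subunit of the sodium pump, averaged 6.92, 7.51 and 9.42 in the same order. Leprel1, a collagen prolyl hydroxylase, averaged 7.17, 7.51 and 9.11. Hp1bp3, a chromatin protein, followed Me1 over a much smaller span, from 10.68 to 10.81 and 11.20. None of the 5 is a gene of fatty acid or NADPH metabolism on the lists used here. The other members were less like Me1: Me2 had 0.667, Elovl6 0.442, Scd1 0.359, Acly 0.245, Acaca 0.0851, Scd2 0.0603, Fasn -0.116 and Idh1 -0.567. The arrays share the 3 conditions, so these coefficients describe the same groups again.

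Me2, the mitochondrial malic enzyme, was modestly higher with full-length MEIS1 and rose with time in culture. It read 10.54 and 10.53 at week 3 and 10.77 and 10.80 at week 4 in HOXA9+MIY, and 10.30 and 10.40 at week 3 and 10.78 and 10.91 at week 4 in HOXA9+MDHD. In HOXA9+MEIS1 it read 10.78 and 10.68 at week 3 and 11.12 and 11.34 at week 4. Within each week both HOXA9+MEIS1 arrays lay above the 4 others, while the ranges overlapped once the weeks were put together. Me2 was 0.38 ± 0.07 log2 (SE) higher in HOXA9+MEIS1 than in HOXA9+MDHD (1.30-fold, adjusted p = 0.00753, limma), and 0.32 ± 0.07 log2 higher than in HOXA9+MIY, as a description. With the week term left out the adjusted p against HOXA9+MDHD was 0.56, and with week 4 alone it was 0.171. HOXA9+MDHD and HOXA9+MIY differed by -0.06 log2 with a 95% interval of -0.21 to 0.09. From week 3 to week 4 Me2 rose by 0.41 ± 0.06 log2 (adjusted p = 7.51e-05, limma). Of its 19 probe sets 16 were called higher, where 30.6% of all single probe sets were called in either direction. Here and below, the probe sets of a gene share their arrays and are not replicates.

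Idh1, the cytosolic isocitrate dehydrogenase that also yields NADPH, was lower under HOXA9+MEIS1 than under HOXA9+MIY. In HOXA9+MIY it read 12.17 and 12.02 at week 3 and 12.16 and 12.01 at week 4, and in HOXA9+MEIS1 11.88 and 11.84 at week 3 and 11.56 and 11.64 at week 4. The 2 conditions did not overlap, and the difference was -0.35 ± 0.12 log2. In HOXA9+MDHD it read 11.77 and 11.75 at week 3 and 11.50 and 12.19 at week 4, so the last of these arrays was the highest of all 12 and the array beside it the lowest. Idh1 was not called in HOXA9+MDHD against HOXA9+MIY (-0.28 ± 0.12 log2, adjusted p = 0.321, limma). Without HOXA9+MDHD week 4 replicate 2 the difference was -0.44 with an adjusted p of 0.00265. The week difference was -0.06 ± 0.10 log2 (adjusted p = 0.66), and -0.17 (adjusted p = 0.0241) without that same array.

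Acly, which cleaves citrate to acetyl-CoA in the cytosol, stayed within 11.16 to 11.51 on all 12 arrays. Its means were 11.40 in HOXA9+MIY, 11.27 in HOXA9+MDHD and 11.43 in HOXA9+MEIS1, and all 3 ranges overlapped. Acly was called in no tested comparison: the difference was -0.13 ± 0.07 log2 for HOXA9+MDHD against HOXA9+MIY (adjusted p = 0.45), 0.16 ± 0.07 for HOXA9+MEIS1 against HOXA9+MDHD (adjusted p = 0.295) and -0.04 ± 0.06 for week 4 against week 3 (adjusted p = 0.614, limma). Leaving out HOXA9+MDHD week 4 replicate 2, where it read 11.46 against 11.16 to 11.26 on the other 3 arrays of that condition, turned both condition differences into calls (-0.21, adjusted p = 0.0314, and 0.23, adjusted p = 0.0197).

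Acaca, the carboxylase that commits acetyl-CoA to fatty acid synthesis, was called between the weeks and in no tested comparison of vectors. At week 3 its 6 arrays read 9.44 and 9.54 in HOXA9+MIY, 9.49 and 9.62 in HOXA9+MDHD and 9.65 and 9.76 in HOXA9+MEIS1. At week 4 they read 9.00 and 8.85, 9.16 and 9.00, and 8.94 and 9.15 in the same order, all below every week 3 array. Acaca fell by 0.57 ± 0.06 log2 from week 3 to week 4 (1.48-fold, adjusted p = 1.05e-05, limma). Of its 103 probe sets 95 were called lower, where 30.6% of all single probe sets were called in either direction. HOXA9+MDHD and HOXA9+MIY differed by 0.11 log2 (95% interval -0.05 to 0.27).

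Fasn, which uses NADPH to build palmitate, was also lower at week 4 in every condition. At week 3 it read 11.24 and 11.30 in HOXA9+MIY, 11.13 and 11.34 in HOXA9+MDHD and 11.30 and 11.43 in HOXA9+MEIS1. At week 4 it read 10.64 and 10.42, 10.63 and 10.57, and 10.41 and 10.49 in that order, again with no overlap between the weeks. Fasn fell by 0.76 ± 0.06 log2 (SE) from week 3 to week 4 (1.70-fold, adjusted p = 1.86e-06, limma). Of its 56 probe sets 52 were called lower, beside the same 30.6% of all single probe sets called in either direction. Beside the 11.1-fold difference of Me1, Fasn in HOXA9+MEIS1 stood 0.01 log2 from HOXA9+MIY (95% interval -0.15 to 0.17), and -0.01 from HOXA9+MDHD (95% interval -0.17 to 0.15).

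Scd1 and Scd2, the stearoyl-CoA desaturases that make monounsaturated fatty acids, gave different values in these comparisons. Scd1 read 11.75 and 11.64 at week 3 and 10.55 and 10.83 at week 4 in HOXA9+MIY, and 11.57 and 11.64, then 11.06 and 10.89, in HOXA9+MDHD. In HOXA9+MEIS1 it read 12.12 and 11.94 at week 3 and 11.24 and 11.41 at week 4, above the other arrays of the same week. Scd1 was 0.39 ± 0.09 log2 higher in HOXA9+MEIS1 than in HOXA9+MDHD (1.31-fold, adjusted p = 0.0282, limma), and 0.48 ± 0.09 higher than in HOXA9+MIY, as a description. The call against HOXA9+MDHD was lost on leaving out any of 6 single arrays, HOXA9+MEIS1 week 3 replicate 1 (adjusted p 0.0887), week 4 replicate 1 (0.0578) and week 4 replicate 2 (0.0978), and HOXA9+MDHD week 3 replicate 1 (0.0811), week 3 replicate 2 (0.0742) and week 4 replicate 2 (0.0571). It was also lost with week 4 alone (0.316) and with no week term (0.953).

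From week 3 to week 4 Scd1 fell by 0.78 ± 0.07 log2 (1.72-fold, adjusted p = 4.43e-06, limma). Of its 13 probe sets 12 were called lower, where 30.6% of all single probe sets were called in either direction. Scd2 moved little, at 13.05 to 13.21 on all 12 arrays, with no call for condition (HOXA9+MDHD against HOXA9+MIY -0.01 log2, 95% interval -0.08 to 0.07) or week (-0.06 ± 0.03 log2, adjusted p = 0.112). The week difference of Scd2 became a call without HOXA9+MDHD week 3 replicate 1 (adjusted p = 0.0258) or week 4 replicate 2 (0.0458), and with median centring of the arrays (0.0484).

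Elovl6, which lengthens palmitate to stearate, was lower at week 4 and had its highest mean with full-length MEIS1. It read 10.92 and 10.94 at week 3 and 10.20 and 10.25 at week 4 in HOXA9+MIY, and 11.10 and 11.27, then 10.62 and 10.49, in HOXA9+MDHD. In HOXA9+MEIS1 it read 11.22 and 11.43 at week 3 and 10.73 and 11.04 at week 4. Within each week every HOXA9+MDHD and HOXA9+MEIS1 array lay above both HOXA9+MIY arrays. The differences were 0.53 ± 0.08 log2 for HOXA9+MEIS1 against HOXA9+MIY, as a description, 0.29 ± 0.08 for HOXA9+MDHD against HOXA9+MIY (adjusted p = 0.11, limma) and 0.23 ± 0.08 for HOXA9+MEIS1 against HOXA9+MDHD (adjusted p = 0.162). Neither tested difference was called, although without HOXA9+MEIS1 week 4 replicate 2 the adjusted p for HOXA9+MDHD against HOXA9+MIY was 0.0425. From week 3 to week 4 Elovl6 fell by 0.59 ± 0.07 log2 (1.51-fold, adjusted p = 1.78e-05, limma). Of its 11 probe sets 9 were called lower, where 30.6% of all single probe sets were called in either direction.

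**Figure D3:**
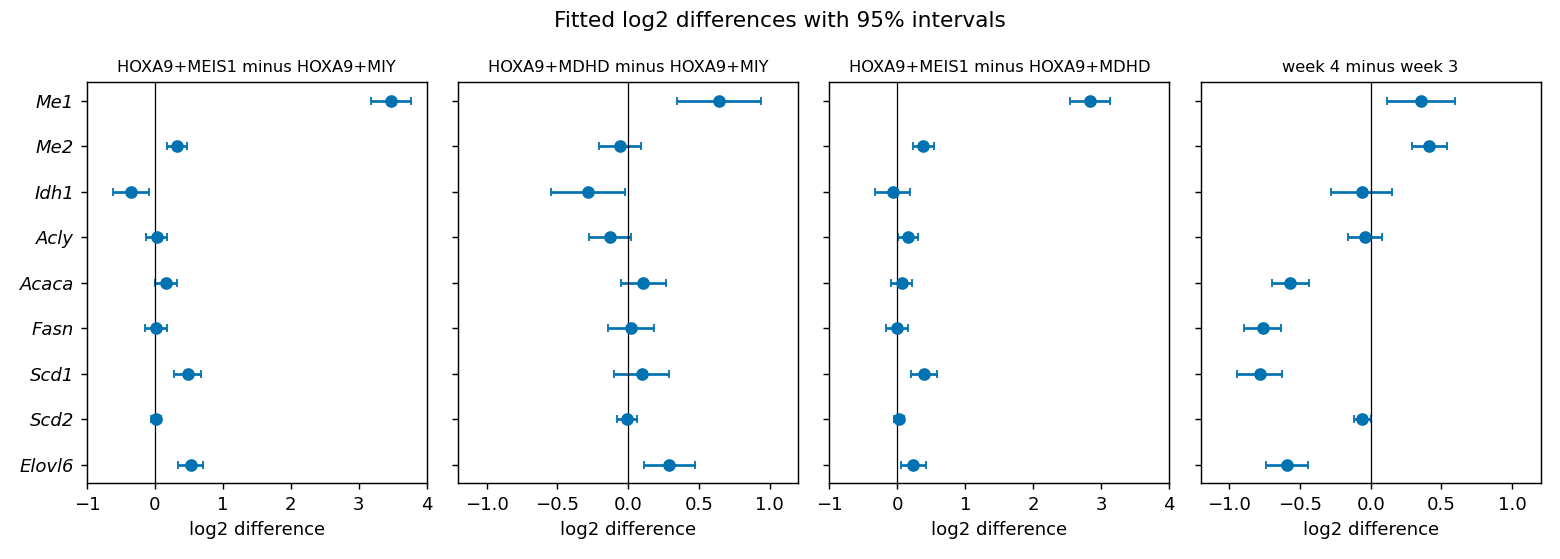
Fitted log2 differences with 95% intervals for the 9 measured members in the 3 condition comparisons and for week 4 minus week 3; the horizontal scales differ, from -1 to 4 in the panels with HOXA9+MEIS1 and from -1.2 to 1.2 in the others. Me1 stands alone at 3.47 and 2.83 in the panels with HOXA9+MEIS1, and Acaca, Fasn, Scd1 and Elovl6 lie between -0.57 and -0.78 in the week panel.

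The counts over the 9 members stand beside the share of all genes called. HOXA9+MEIS1 against HOXA9+MIY chose the set, so its member counts are a description from which nothing is read: 4 of 9 were under the threshold (Me1, Me2, Scd1 and Elovl6), as were 10.8% of all genes, and 2 of 9 had ranges that did not overlap (Me1 and Idh1), as did 11.0% of all genes. For HOXA9+MEIS1 against HOXA9+MDHD, Me1 is left out for the same reason, and 2 of the other 8 members passed (Me2 and Scd1) against 4.36% of all genes. For week 4 against week 3, 6 of 9 passed where 39.8% of all genes did. Acaca, Fasn, Scd1 and Elovl6 were lower, against 28.1% of all genes, and Me1 and Me2 were higher, against 11.7%. The week call of Me1 was lost on leaving out any single HOXA9+MEIS1 array. The weeks did not overlap for 3 of 9 members (Acaca, Fasn and Scd1) and for 22.1% of all genes, and at the level of single probe sets 30.6% of all were called between the weeks. The median member difference was 0.17 log2 for HOXA9+MEIS1 against HOXA9+MIY, 0.02 for HOXA9+MDHD against HOXA9+MIY, 0.16 for HOXA9+MEIS1 against HOXA9+MDHD and -0.06 for week 4 against week 3, beside medians of -0.01, -0.01, 0.01 and -0.02 over all genes. The 3 condition comparisons share arrays, so their counts are not independent.

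The fall of the lipogenic enzymes appeared within each condition. In HOXA9+MIY the week 4 values of Acaca, Fasn, Scd1 and Elovl6 fell by 0.56, 0.74, 1.01 and 0.71 log2, and these 4 of 9 members were called lower where 17.0% of all genes were. In HOXA9+MEIS1 they fell by 0.67, 0.92, 0.71 and 0.44 log2, and with Scd2, which fell by 0.12, 5 of 9 were called lower where 22.2% of all genes were. In HOXA9+MDHD they fell by 0.47, 0.63, 0.63 and 0.63 log2, and these 4 of 9 were called lower where 13.8% of all genes were. Against this, Me2 was called higher in HOXA9+MEIS1 (0.50 log2, adjusted p = 0.00163) and HOXA9+MDHD (0.50 log2, adjusted p = 0.00349), and was 0.25 log2 higher in HOXA9+MIY with an adjusted p of 0.0644. All within-condition values come from limma with 2 arrays a week.

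Other genes of the same metabolism were taken from 7 lists of 123 symbols, of which 117 had a gene value. The lists were written with earlier results of these data known, so their counts and adjusted p-values are read as descriptions. Beside the counts for HOXA9+MEIS1 against HOXA9+MIY that follow, 5.29% of all genes were called higher and 5.56% lower. For the sources of NADPH and the pentose phosphate pathway, 1 of 16 was called higher and 1 lower under HOXA9+MEIS1 than under HOXA9+MIY. Pgd, the second NADPH-making enzyme of the pentose phosphate pathway, was lower (11.87 to 11.39, difference -0.48 ± 0.09 log2, adjusted p = 0.00462, limma), and Mthfd2l, a mitochondrial folate enzyme, was higher (8.08 to 8.44, difference 0.36 ± 0.06, adjusted p = 0.00168). Of the genes that supply citrate, malate and acetyl-CoA, 3 of 16 were called higher and 1 lower. Pcx, the carboxylase that refills oxaloacetate from pyruvate, was 0.40 ± 0.07 log2 higher, Got1, a cytosolic aspartate aminotransferase, 0.23 ± 0.06, and Mdh2, the mitochondrial malate dehydrogenase, 0.21 ± 0.04, while Slc25a11, a mitochondrial malate carrier, differed by -0.13 ± 0.04. Pcx was also 0.36 ± 0.07 log2 higher than in HOXA9+MDHD (adjusted p = 0.0173).

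Of 28 further genes of fatty acid synthesis, elongation, desaturation and activation, 2 were called higher under HOXA9+MEIS1 than under HOXA9+MIY and 1 lower. The higher ones were the acyl-CoA synthetases Acsl3 (0.54 ± 0.09 log2, adjusted p = 0.00169) and Acsl4 (0.36 ± 0.05, adjusted p = 3.68e-04), and the lower one was Ptplb (-0.36 ± 0.11). Both Acsl3 (0.44 ± 0.09 log2, adjusted p = 0.0298) and Acsl4 (0.24 ± 0.05, adjusted p = 0.0294) were also called higher in HOXA9+MDHD than in HOXA9+MIY. In glycerolipid synthesis 2 of 14 were called higher and 2 lower: Agpat4 stood at 0.41 ± 0.09 log2 and Gpam at 0.23 ± 0.06, and Dgat2, which makes triglyceride, at -1.07 ± 0.30 (adjusted p = 0.0366) and the lipid droplet gene Adfp at -0.24 ± 0.05.

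Among 17 regulators of lipid synthesis, 2 were called higher under HOXA9+MEIS1 than under HOXA9+MIY, the coactivator Ppargc1a (0.91 ± 0.16 log2, adjusted p = 0.00241) and the sterol-regulated Insig1 (0.30 ± 0.06, adjusted p = 0.00934), and 2 were lower, Pparg (-0.26 ± 0.06) and Rxra (-0.21 ± 0.06). Pparg was also called lower in HOXA9+MDHD than in HOXA9+MIY, at -0.34 ± 0.06 log2 (adjusted p = 0.0144). In HOXA9+MEIS1 against HOXA9+MDHD, 2 of the 17 were called higher and 1 lower, beside 4.36% of all genes called. The higher ones were Ppargc1a (0.78 ± 0.16 log2, adjusted p = 0.0148, limma) and Insig1 (0.33 ± 0.06, adjusted p = 0.0109). The lower one was the AMP kinase subunit Prkaa2, at -1.07 ± 0.17 log2 (adjusted p = 0.00353). Its means were 7.72 in HOXA9+MIY, 8.45 in HOXA9+MDHD and 7.38 in HOXA9+MEIS1. Of 13 targets of Nfe2l2 and other users of NADPH in redox defence, none was called higher under HOXA9+MEIS1 than under HOXA9+MIY and 3 were lower: Hmox1, which degrades haem (-0.74 ± 0.16 log2, adjusted p = 0.011), glutathione reductase Gsr (-0.24 ± 0.06) and thioredoxin Txn1 (-0.13 ± 0.03). Of 13 genes of fatty acid oxidation 2 were higher, Acadl (0.58 ± 0.07 log2, adjusted p = 1.29e-04) and Decr1 (0.32 ± 0.09), and none lower. The medians of the 7 lists lay between -0.14 and 0.06 log2, beside -0.01 over all genes.

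Between the weeks each of the 7 lists had more genes called lower than higher, beside 28.1% of all genes called lower and 11.7% higher. Called lower were 8 of 16 other NADPH genes, 13 of 16 genes of citrate, malate and acetyl-CoA supply, 17 of 28 of fatty acid synthesis and modification and 10 of 13 of fatty acid oxidation, with 0, 1, 1 and 1 called higher. Of the 17 regulators of lipid synthesis, 6 were lower and 2 higher. Mthfd2 and Mthfd1, which carry folate carbon, differed by -1.0 ± 0.09 and -0.89 ± 0.08 log2, the desaturase Fads2 by -0.73 ± 0.05 and Hsd17b12, which takes part in elongation, by -0.68 ± 0.05. Insig1, which was higher with MEIS1, differed by -0.58 ± 0.05 between the weeks, in the same direction as Fasn and Scd1. In glycerolipid synthesis 4 of 14 were higher and 5 lower, with Lpin1 at 0.93 ± 0.07 log2 and Dgat1 at 0.56 ± 0.08. Hmox1 had the largest week difference on the lists, at 1.74 ± 0.13 log2 (adjusted p = 1.4e-06, limma), from 9.24 at week 3 to 10.98 at week 4, and 2 of 13 Nfe2l2 and redox genes were higher and 5 lower.

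**Figure D4:**
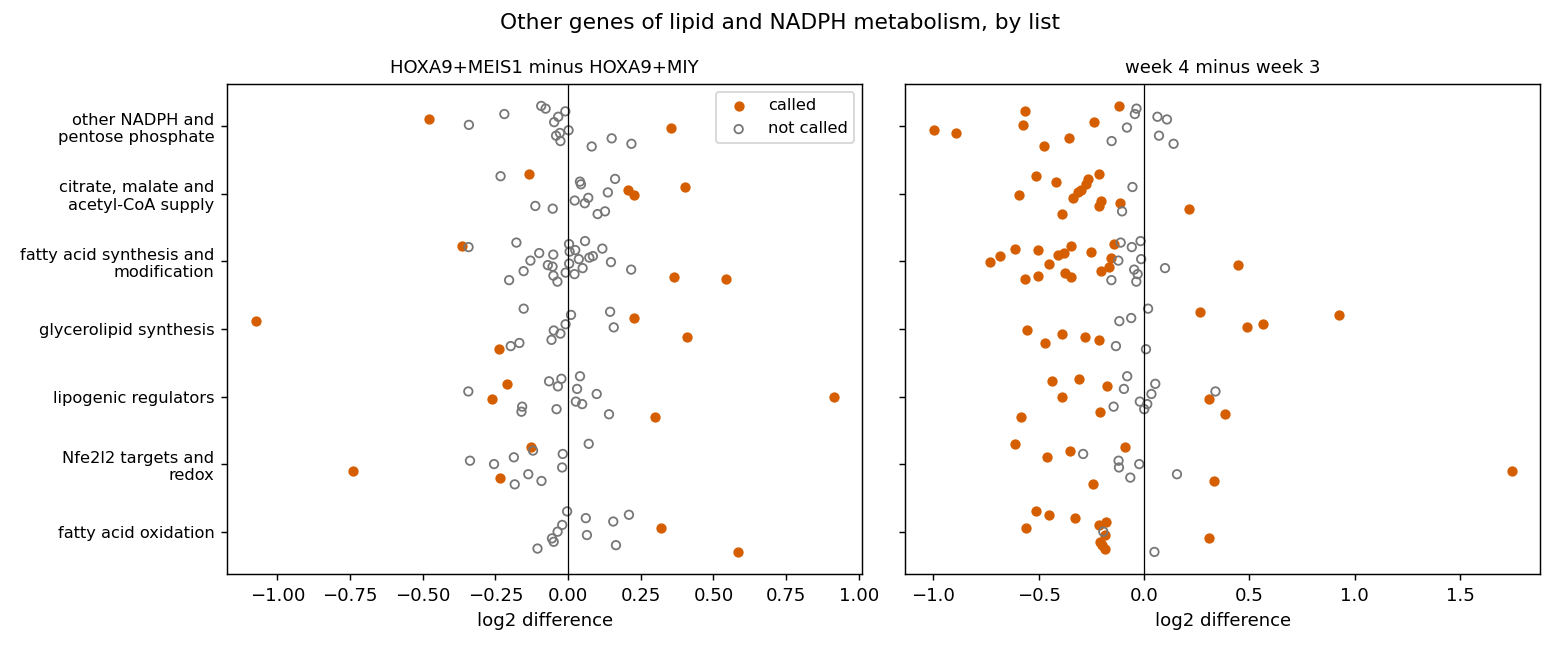
Log2 differences of the 117 other genes of lipid and NADPH metabolism, by list, for HOXA9+MEIS1 minus HOXA9+MIY on the left and week 4 minus week 3 on the right; filled points passed the adjusted p of 0.05 and points are spread vertically only to separate them. Between the conditions called genes lie on both sides of 0, and between the weeks most called genes lie below it, with Hmox1 at 1.74 the farthest above.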

How the data were processed

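Exon arrays of 12 samples were analysed. Per the submitters' processing notes, the authors used Affymetrix Expression Console and its RMA summary; their versions are not given in the sources used here. The deposited values are log2 per probe set (0 to 14.93), relative to these arrays, and so already normalized. Of 1256831 probe sets, 318760 named 1 symbol of 22296 in GEO's platform annotation, which can be old. Probe sets with a mean above 6.2592 (50th percentile) were kept, 233798 in all, and summarised per gene by median polish (at most 50 iterations). Condition and week entered a linear model over the 12 arrays, run in R 4.3.3 with limma 3.58.1 (two-sided moderated tests, mean-variance trend), with 8 residual and 4.1 prior degrees of freedom. Intervals are 95%. A second model added their interaction. The members and lists were chosen with earlier results of these data known. Named were all members, up to 4 called genes with the largest difference per list and comparison, or the 2 largest where none was called, and the 5 genes most correlated with Me1, of which the text gives the main ones. Alternatives changed the filter, the summary, normalization, trend, week term, arrays and replicate block. The scripts were tested on simulated data. Promoters were taken from RefSeq.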

Additional observations from a re-analysis of the deposited data

How the results depend on the processing

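The direction of Me1 held between conditions and between weeks in every alternative run. Its difference between HOXA9+MEIS1 and HOXA9+MIY (3.47 log2) was 1.63 with the stricter filter, which keeps the brighter and flatter probe sets, 3.04 with the mean of the probe sets, 3.06 with week 3 alone and 3.89 with week 4 alone, and 3.37 to 3.59 on leaving out single arrays. Against HOXA9+MDHD (2.83) it was 1.46 with the stricter filter. Its difference between HOXA9+MDHD and HOXA9+MIY (0.64) lost its call with the stricter filter (0.17), with the filter on the HOXA9+MIY and HOXA9+MDHD arrays, chosen after seeing the data (0.33), without the week term (0.64, adjusted p = 0.276), and in fits of the week 3 arrays alone (0.49) and the week 4 arrays alone (0.79, although the interaction model of all 12 arrays called that difference, at an adjusted p of 0.0153), and ranged from 0.55 to 0.75 without single arrays. The labels number the arrays but do not say whether equal numbers pair them. Between conditions within a week, residual correlations were -0.315 to -0.015 for arrays of the same number and -0.271 to 0.047 otherwise. These ranges overlap and cannot settle the question, and arrays of different weeks were not compared in this way. With the replicate block Me1 kept 0.64 at an adjusted p of 0.0583 and 0 members were called. All other members' calls held under the block.

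Members called for HOXA9+MDHD against HOXA9+MIY numbered 0 with the stricter filter, with the filter on the arrays of those 2 conditions, without the week term, with the replicate block and in fits of 1 week's arrays alone, and 0 to 3 without single arrays, against 1. Without the week term, and with week 3 alone, 1 member in place of 4 was under the threshold for HOXA9+MEIS1 against HOXA9+MIY. That comparison chose the set, so this is a description. Without the week term or with week 4 alone, it was 1 in place of 3 for HOXA9+MEIS1 against HOXA9+MDHD. Each time the 1 was Me1, whose value there is also a description. These fits carry fewer arrays or added spread, and the cause of the lower counts was not tested. The week counts stayed at 5 to 8 against 6 in the fits run, and members with a called interaction at 0. Me1 probe sets called for HOXA9+MDHD stayed at 7 to 9 against 8, and most of those 8 had a HOXA9+MIY mean below the filter level.

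In the tested comparisons signs turned only for small differences with no call. For HOXA9+MDHD against HOXA9+MIY these were Me2 (0.066, week 4 alone), Fasn (-0.031, week 3 alone, and -0.014 to 0.088 without single arrays), Scd1 (-0.092, week 3 alone) and Scd2 (0.052, week 4 alone, and -0.030 to 0.022 without single arrays). For HOXA9+MEIS1 against HOXA9+MDHD they were Idh1 (0.10, week 3 alone, and -0.17 to 0.088 without single arrays), Acaca (-0.036, week 4 alone), Fasn (0.001 with quantile normalization, 0.13 with week 3 alone, and -0.076 to 0.032 without single arrays) and Scd2 (-0.051, week 4 alone, and -0.0074 to 0.045 without single arrays). Idh1 between the weeks ranged from -0.17 to 0.0041 without single arrays. With 4 arrays a condition the number of arrays limits the precision, and the HOXA9+MIY level of Me1 lies near the filter level.

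The week and its interaction have no value within 1 week or without the week term. They were not refitted with the compared groups alone, and the interaction was not refitted with the replicate block.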
